A study of Mus musculus with 4 samples.

Results

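The nuclear-encoded subunits of the oxidative phosphorylation complexes were taken as every probe set whose single gene symbol on the platform annotation began with Nduf (without the assembly factors named Ndufaf), Uqcr, Atp5, Cox4i, Cox5, Cox6, Cox7 or Cox8, or was Sdha, Sdhb, Sdhc, Sdhd, Cyc1 or Cycs. This gave 174 probe sets of 84 genes among 45101 probe sets on the array, of which 34958 had a single gene. By symbol, 34 genes belonged to complex I, 4 to complex II, 9 to complex III, 19 to complex IV and 17 to complex V, with Cycs for cytochrome c. Ndufa4 and its paralogue Ndufa4l2 were counted with complex IV, where the NDUFA4 protein is now placed. Another 10 probe sets named several genes, of which at least 1 met the rule, and were not used, and Ndufa11 and Ndufs6 therefore have no value here.

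The samples were 4 one-colour oligonucleotide arrays of total RNA from the left hemi-diaphragm of mice, 2 of the region that holds the nerve-muscle synapses and 2 of muscle outside it. No treatment, genotype, strain, sex or age is given in the sources used here, nor whether each array had an animal of its own. The titles end in le1 or le2, and this number is used to name the arrays. The p-values therefore measure how far single arrays vary, and that variation may be technical. All 10 markers of skeletal muscle fibres looked up were measured, and none lay at the floor on any array, with Tnnt3, fast troponin T, at log2 intensities from 17.38 to 17.52. Each sample is a piece of tissue, so fewer cells of a type and less RNA per cell cannot be told apart.

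Oxidative phosphorylation makes most of the ATP of a working muscle fibre. Complexes I and II pass electrons from NADH and succinate to ubiquinone, complex III passes them to cytochrome c, complex IV passes them to oxygen, and complex V, the ATP synthase, uses the proton gradient built on the way. The diaphragm contracts throughout life and is rich in mitochondria, which are also known to gather beneath the postsynaptic membrane. The comparison asks whether the transcripts of these subunits are more or less abundant near the synapses than away from them.

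RefSeq windows of 300 bases on GRCm38.p6, from 250 before to 50 after the start of transcription, were matched by gene identifier for 68 of the 84 genes. The letters GCGCNTGCG or their reverse complement, a core of the binding motif of the nuclear respiratory factor NRF1, stood in the windows of 23 of these 68 genes (33.8%). The same letters stood in 14.6% of 9850 other measured genes with a window, in 7.12% of all 27025 genes with a window, and in 6.31% of all 32851 windows. By complex they were present for 9 of 15 genes of complex V, 7 of 31 of complex I, 3 of 5 of complex III, 2 of 3 of complex II and 1 of 13 of complex IV, and also for Cycs. Letters of YY1 (AAGATGGC) were present for 13.2% of members and 4.98% of the other measured genes, and those of ESRRA (AAGGTCA) for 11.8% and 3.88%. Letters of GABP (CCGGAAGT) were present for 7.35% and 8.44%, and those of SP1 (GGGCGG) for 44.1% and 67.5%. Both strands were searched, an overlap between motifs was allowed, and a match is a description of letters and not a binding site. The windows of Cycs and of 3 genes of complex IV are shown, the general isoforms Cox6a1 and Cox8a and the muscle isoform Cox8b. Capitals mark the matches of NRF1 in Cycs and Cox6a1 and of GABP in Cox8a. The window of Cox8b holds none of the letters of NRF1, GABP, ESRRA or YY1. Those of the general forms Cox7a2 and Cox6b1 hold none of them either. In complex IV the letters of NRF1 and of GABP stood for 1 of 13 genes each, and those of ESRRA and YY1 for 0. The windows shown therefore do not stand for general against muscle isoforms. In Cox6a1 the first run of capitals is a pair of overlapping matches, since its letters read alike on both strands. The windows lie on GRCm38.p6 at chr6:50566520-50566819 (minus strand) for Cycs, chr5:115348909-115349208 (minus strand) for Cox6a1, chr19:7217567-7217866 (minus strand) for Cox8a and chr7:140900397-140900696 (minus strand) for Cox8b, each printed 5′ to 3′ along the gene.
Cycs: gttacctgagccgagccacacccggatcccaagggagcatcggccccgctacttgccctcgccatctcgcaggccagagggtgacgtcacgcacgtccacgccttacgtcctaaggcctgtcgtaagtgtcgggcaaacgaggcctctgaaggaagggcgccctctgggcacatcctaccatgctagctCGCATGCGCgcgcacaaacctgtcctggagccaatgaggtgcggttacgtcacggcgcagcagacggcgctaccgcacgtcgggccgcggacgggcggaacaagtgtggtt
Cox6a1: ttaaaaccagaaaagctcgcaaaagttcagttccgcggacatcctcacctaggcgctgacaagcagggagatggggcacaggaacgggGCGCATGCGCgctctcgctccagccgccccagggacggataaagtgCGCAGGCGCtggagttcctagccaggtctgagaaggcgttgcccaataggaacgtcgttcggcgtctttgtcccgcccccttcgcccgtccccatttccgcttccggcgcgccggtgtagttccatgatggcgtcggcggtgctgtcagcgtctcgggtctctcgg
Cox8a: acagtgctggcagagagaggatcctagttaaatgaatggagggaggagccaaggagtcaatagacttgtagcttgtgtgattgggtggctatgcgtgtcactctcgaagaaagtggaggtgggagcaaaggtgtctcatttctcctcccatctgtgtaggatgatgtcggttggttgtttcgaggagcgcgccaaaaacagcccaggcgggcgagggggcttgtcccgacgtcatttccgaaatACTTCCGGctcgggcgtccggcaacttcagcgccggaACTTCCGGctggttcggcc
Cox8b: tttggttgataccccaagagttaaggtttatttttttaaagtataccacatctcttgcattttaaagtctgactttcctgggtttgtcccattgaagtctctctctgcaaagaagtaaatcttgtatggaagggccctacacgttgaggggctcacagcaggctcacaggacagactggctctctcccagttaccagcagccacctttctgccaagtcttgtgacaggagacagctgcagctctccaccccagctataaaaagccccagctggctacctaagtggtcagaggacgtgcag

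No subunit passed the test for a difference between the regions. Of the 174 probe sets, 161 passed the filter on low signal, covering 83 of the 84 genes, and 0 of the 161 passed limma at an adjusted p under 0.05 over all 26480 probe sets tested, in either direction. The background of such calls was itself small, at 0.00378% of probe sets higher and 0.00755% lower in the synaptic region. At an unadjusted p under 0.05 the count was again 0 of 161, against 0.986% of all probe sets, and the smallest unadjusted p of a member was 0.161. Each gene was read from its brightest probe set, and all differences below are synaptic minus non-synaptic on the log2 scale. The median difference over the 83 genes was 0.03, beside 0.00 over all 12363 genes measured. It was 0.04 for complex I, -0.03 for complex II, 0.06 for complex III, 0.05 for complex IV and 0.02 for complex V. Without the first synaptic array the medians of all 5 complexes were below 0, from -0.09 for complex II to -0.04 for complex IV. A positive difference was found for 68 genes and a negative one for 15, and 2 genes, Cox4i2 and Cox7c, exceeded 0.25 in size.

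**Figure D1:**
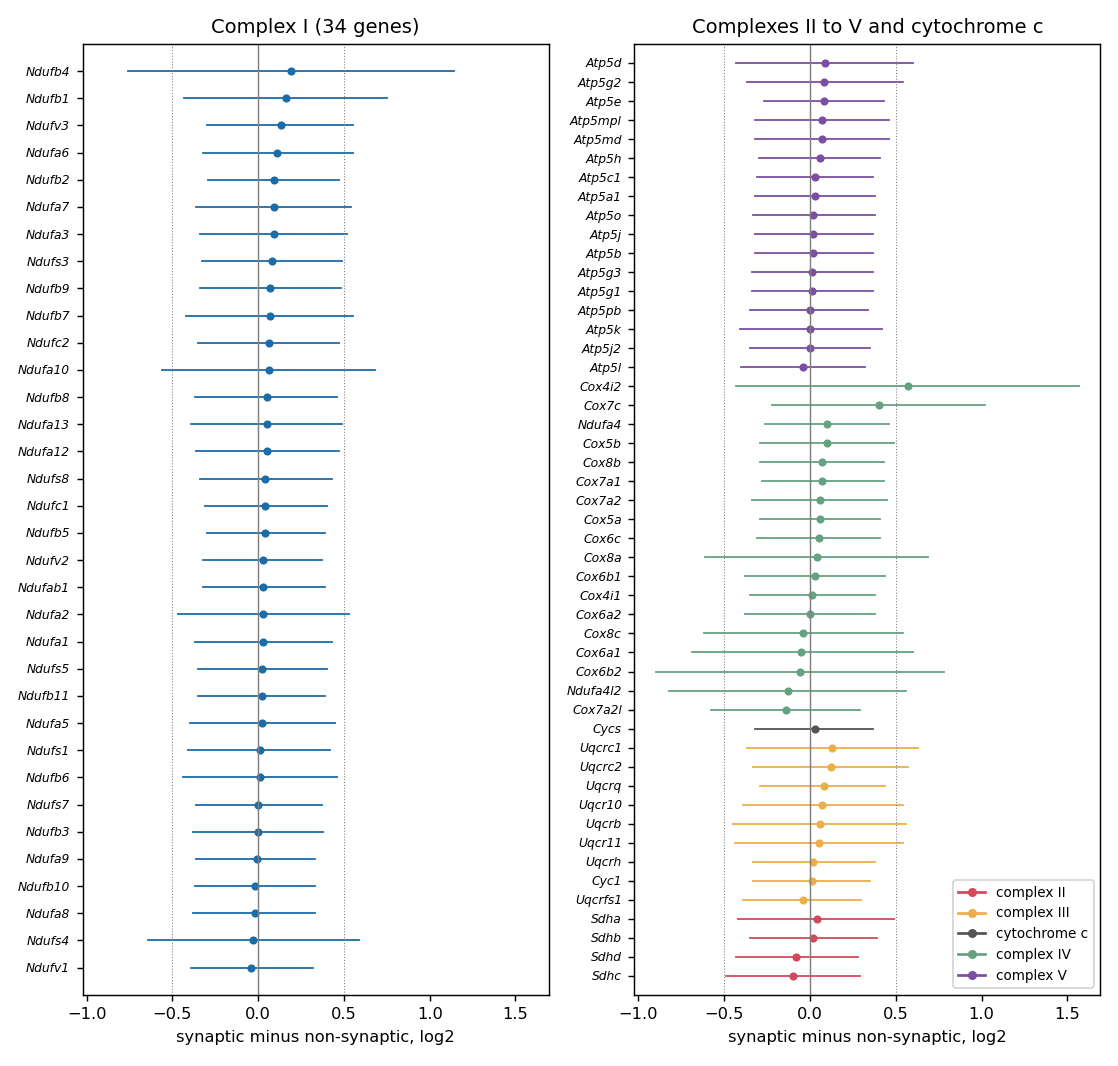
Difference between regions for each of the 83 genes measured (points, synaptic minus non-synaptic, log2) with its 95% interval from the limma fit (lines), n = 2 arrays per region. Dotted lines mark a difference of 0.5, every interval includes 0, and Cox4i2, Cox7c and Ndufb4 have the widest reach to the right.

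The intervals describe precision over these arrays, whose variation may be technical, and set no limit for differences among animals. The 95% interval of the difference lay within 0.5 of 0, a 1.41-fold change, for 58 of the 83 genes (69.9%), and within 1, a 2-fold change, for 80 (96.4%). Over all genes measured these shares were 6.97% and 69.8%. Over the 503 genes other than members with a mean log2 above 15 they were 46.9% and 94.4%. The 3 genes with an interval that reached past 1 were Ndufb4, Cox4i2 and Cox7c, whose probe sets were dim, and they were picked out after their values were seen. The median distance from the estimate to an end of the interval was 0.39 for the members and 0.666 for all genes measured. It was 0.435 for those 503 other bright genes.

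Nearly all members were read near the top of the array's scale. The mean log2 intensity was above 15 for 75 of the 83 genes and below 12 for 7, and the median member lay above 99% or more of the tested probe sets on every array. The brightest member, Cox6b1 on the first synaptic array, had an intensity of 170798, where the brightest probe set of that array reached 202114. Whether probe sets this bright understate a difference was not tested. Of the 503 other genes with a mean above 15, 7 differed by more than 0.25, and the differences ran from -1.32 to 0.32. The lowest was Myh4, a fast-fibre myosin, at 14.97 and 15.30 on the synaptic and 16.39 and 16.52 on the non-synaptic arrays. The 75 bright members ran from -0.10 to 0.13.

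Complex I, the NADH dehydrogenase, had 34 genes and all were measured. Their differences ran from -0.04 to 0.19, with 29 above 0 and 5 below. In what follows the arrays are given in the order first, second. Ndufv1, the subunit that binds NADH and its flavin, had log2 intensities of 16.33 and 16.17 on the synaptic arrays and 16.28 and 16.29 on the non-synaptic arrays. The regions overlapped, and the difference of -0.04 ± 0.14 (SE) had a 95% interval from -0.39 to 0.32. Ndufv3, a small subunit of the same arm, stood at 16.51 and 16.19 against 16.21 and 16.24. It had the smallest unadjusted p of the complex, 0.480, at a difference of 0.13 ± 0.17, and its first synaptic array alone stood above the other 3. Ndufa6, an accessory subunit, gave 16.25 and 15.92 against 15.98 and 15.96, a difference of 0.11 ± 0.17. Ndufb2 gave 16.20 and 16.07 against 15.97 and 16.12, a difference of 0.09 ± 0.15. For both genes the first synaptic array was again the highest and the second lay among or below the non-synaptic arrays.

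The brightest complex I genes behaved alike. Ndufb9 had linear intensities of 154197 and 122715 on the synaptic arrays and 131454 and 130447 on the non-synaptic arrays. Ndufa12 had log2 intensities of 17.02 and 16.70 against 16.82 and 16.79. In each gene the second synaptic array was the lowest of the 4, and the differences were 0.07 ± 0.16 and 0.05 ± 0.16. Ndufs4, an accessory subunit needed for assembly of the NADH-oxidising arm, showed another order, with 15.15 and 15.53 against 15.12 and 15.61. Both of its arrays numbered 2 stood above both numbered 1, by 0.44 on average, while the regions differed by -0.03 ± 0.24. The largest differences of the complex came from its 2 dim probe sets. Ndufb4 gave 9.06 and 9.55 against 8.91 and 9.32, with a difference of 0.19 ± 0.37. Ndufb1 gave 11.32 and 11.14 against 11.20 and 10.93, with a difference of 0.16 ± 0.23. For each of them the regions overlapped.

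Complex II, succinate dehydrogenase, is also an enzyme of the citric acid cycle. Its median of -0.03 became 0.05 without the second synaptic array and 0.03 without the second non-synaptic array. Sdha, the flavoprotein that oxidises succinate, gave 16.54 and 16.17 on the synaptic arrays and 16.26 and 16.39 on the non-synaptic arrays. Both synaptic values lay outside the non-synaptic pair, 1 above and 1 below. Its difference was 0.04 ± 0.18. The other tested probe sets of Sdha gave -0.02, with the regions overlapping, and 0.21 on a dim set, with both synaptic arrays above. Sdhb, the iron-sulfur subunit, gave 16.76 and 16.62 against 16.59 and 16.75, a difference of 0.02 ± 0.14. The membrane anchors had small negative differences. Sdhc gave 15.99 and 15.78 against 16.03 and 15.94, and Sdhd gave 16.00 and 15.91 against 15.99 and 16.07. Their differences of -0.10 ± 0.15 and -0.08 ± 0.14 had intervals that reached 0.29 and 0.28, and the regions overlapped in both. The second probe set of Sdhc gave -0.26, with the regions set apart only narrowly, and that of Sdhd -0.10.

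All 9 genes of complex III were measured, and the first synaptic array was the highest of the 4 for each of them. Cyc1, cytochrome c1, gave 16.90 and 16.79 on the synaptic arrays and 16.81 and 16.87 on the non-synaptic arrays, a difference of 0.01 ± 0.13. Uqcrfs1, the Rieske iron-sulfur protein, gave 16.63 and 16.49 against 16.59 and 16.62, and was the single member of the complex with a negative difference, -0.04 ± 0.14. The core proteins Uqcrc1 and Uqcrc2 had the largest differences, 0.13 ± 0.20 and 0.12 ± 0.18. Uqcrc1 stood at 16.89 and 16.47 against 16.67 and 16.43, and Uqcrc2 at 16.53 and 16.20 against 16.34 and 16.15. In both core genes the arrays numbered 1 stood above the arrays numbered 2 in either region, by 0.33 and 0.26, and that gap exceeded the gap between regions. Uqcrb, which helps to bind ubiquinone, showed it as well, with 17.28 and 16.80 against 17.05 and 16.91 and a difference of 0.06 ± 0.20. Of the other small subunits, Uqcr10 differed by 0.07 ± 0.18, Uqcr11 by 0.05 ± 0.19, Uqcrh by 0.02 ± 0.14 and Uqcrq by 0.08 ± 0.14. The other tested probe sets of Uqcrq gave 0.65 and -0.29, on both sides of 0. Those of Uqcr10 gave 0.16 and 0.18, each with both synaptic arrays above. The other set of Uqcrh gave -0.14, with both synaptic arrays below, and that of Uqcrb gave -0.05, with the regions overlapping. The median of complex III was 0.25 without the second synaptic array and -0.08 without the first.

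Cytochrome c itself, the mobile carrier encoded by Cycs whose promoter is shown above, had log2 intensities of 17.03 and 16.88 on the synaptic arrays and 16.91 and 16.94 on the non-synaptic arrays. The synaptic pair enclosed the non-synaptic pair, and the difference was 0.03 ± 0.14. Its 3 probe sets that passed the filter gave from -0.05 to 0.06.

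Complex IV, cytochrome c oxidase, is built in muscle with its own isoforms of several subunits, and 18 of its 19 genes were measured. Its differences ran from -0.14 to 0.57, with 13 above 0 and 5 below. Cox7b2, a paralogue of Cox7b with 1 probe set, lay below the filter. Cox6a2, the isoform of heart and skeletal muscle, gave 17.15 and 16.89 on the synaptic arrays and 17.01 and 17.03 on the non-synaptic arrays, a difference of 0.00 ± 0.15. Its widely expressed counterpart Cox6a1 gave 15.96 and 15.34 against 15.84 and 15.55, a difference of -0.05 ± 0.25. The arrays of Cox6a1 were split by number and not by region, those numbered 1 standing 0.46 above those numbered 2. The second probe set of Cox6a2 was split by number too, with 16.44 and 15.80 against 16.17 and 15.74, a gap of 0.54. Its difference between regions was 0.16 ± 0.28. Cox8b, the muscle and heart form of subunit VIII, gave 17.11 and 16.93 against 16.90 and 17.01. Its counterpart Cox8a gave 15.47 and 14.85 against 15.24 and 14.99, again with the arrays numbered 1 above those numbered 2. The differences between regions were 0.07 ± 0.14 for Cox8b and 0.04 ± 0.25 for Cox8a.

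Cox7a1, the muscle and heart isoform of subunit VIIa, gave 16.43 and 16.30 on the synaptic arrays and 16.26 and 16.32 on the non-synaptic arrays. Its counterpart Cox7a2 gave 17.36 and 17.09 against 17.10 and 17.24. Neither muscle nor general isoforms were set apart by region in any of these pairs. The differences were 0.07 ± 0.14 and 0.06 ± 0.16, with 95% intervals from -0.28 to 0.43 and from -0.34 to 0.45. Cox4i1, the general form of subunit IV, had linear intensities of 145753 and 125621 against 130730 and 137776, and Cox6b1 had log2 intensities of 17.38 and 17.06 against 17.15 and 17.23. Their differences were 0.01 ± 0.14 and 0.03 ± 0.16. Cox7a2l, which helps to join complexes III and IV into supercomplexes, had the lowest difference of all members, -0.14 ± 0.17, with 14.69 and 14.42 against 14.70 and 14.69. Its 3 probe sets ran from -0.14 to 0.17, so the sign depended on the probe set.

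**Figure D2:**
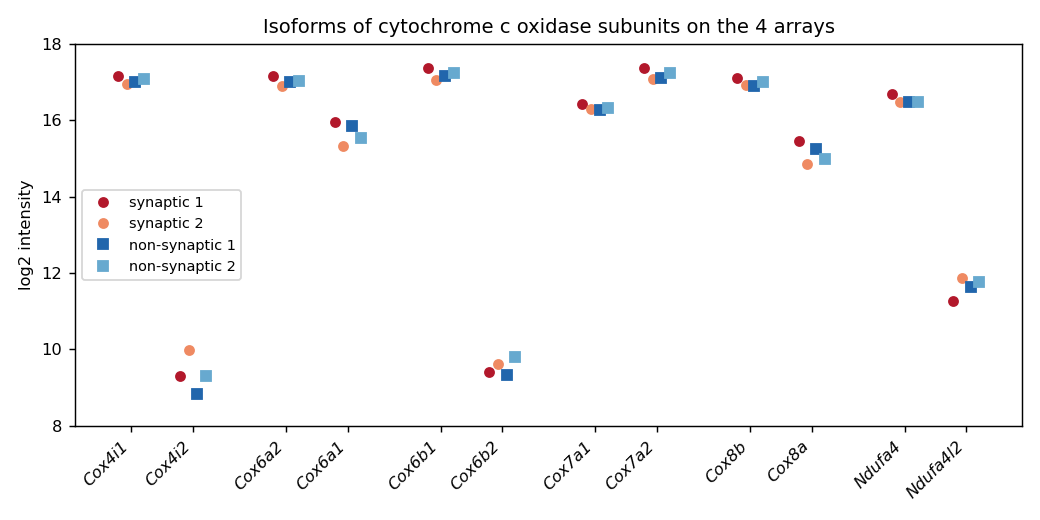
Log2 intensity of 6 pairs of cytochrome c oxidase isoforms on each array (circles, synaptic; squares, non-synaptic). The brightness of different probe sets is not comparable; within a gene, the regions overlap for each gene drawn except Cox4i2 and Ndufa4.

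The 2 largest differences among members were both in complex IV and both on dim probe sets. Cox4i2, the isoform of subunit IV known from lung, gave 9.31 and 9.98 on the synaptic arrays and 8.84 and 9.30 on the non-synaptic arrays. The regions were set apart, but narrowly, the nearest arrays having linear intensities of 634 and 629, and the difference of 0.57 ± 0.39 had an unadjusted limma p of 0.202. Cox7c, a subunit of all tissues, gave 10.70 and 10.88 against 10.27 and 10.51, set apart as well, with a difference of 0.40 ± 0.24 and an unadjusted p of 0.161. All but the first non-synaptic array of Cox4i2 lay above the filter level of 8.87, and all lay above the floor of 7.31. The other probe set of Cox7c lay below the filter, at linear intensities of 271 and 376 against 194 and 291. Whether probe sets this dim read the main transcript of a gene was not tested. Ndufa4 gave 16.68 and 16.49 against 16.49 and 16.48, a difference of 0.10 ± 0.14. Its dim paralogue Ndufa4l2, which is known to respond to low oxygen, gave 11.28 and 11.87 against 11.63 and 11.77, a difference of -0.13 ± 0.27. The forms known from testis were dim in both regions, with differences of -0.06 ± 0.33 for Cox6b2 and -0.04 ± 0.23 for Cox8c.

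All 17 genes of complex V, the ATP synthase, were measured, and their differences ran from -0.04 to 0.09. This was the complex with the smallest median size of difference between regions among those with more than 1 gene, 0.027. All genes measured had 0.116, and genes other than members with a mean log2 above 15 had 0.0572. Atp5a1, the alpha subunit of the catalytic head, gave 17.29 and 17.15 on the synaptic arrays and 17.13 and 17.26 on the non-synaptic arrays, a difference of 0.03 ± 0.14. Atp5c1, the rotating gamma subunit, gave 17.11 and 17.02 against 16.97 and 17.10, a difference of 0.03 ± 0.13. In the rest of the stalk, Atp5d gave 17.09 and 16.61 against 16.84 and 16.68, and Atp5e gave 16.26 and 16.14 against 16.13 and 16.11. Atp5e, with a difference of 0.08 ± 0.14, had the smallest unadjusted p of the complex, 0.585, and was its one gene with the regions apart, while Atp5d differed by 0.09 ± 0.20. The ring of subunit c is encoded by 3 genes that give the same mature protein. Atp5g1 gave 16.96 and 16.78 against 16.82 and 16.89, Atp5g2 gave 16.14 and 15.79 against 15.95 and 15.82, and Atp5g3 gave 17.10 and 16.92 against 16.96 and 17.04. None of the 3 was set apart, with differences of 0.01 ± 0.14, 0.08 ± 0.18 and 0.01 ± 0.14. The peripheral stalk subunit Atp5pb differed by -0.00 ± 0.14, and the membrane subunits Atp5l, Atp5md and Atp5mpl by -0.04 ± 0.14, 0.07 ± 0.15 and 0.07 ± 0.15.

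Counting arrays gave the same picture without a model. For 4 of the 83 genes the lower synaptic array exceeded the higher non-synaptic one (4.82%), namely Cox4i2, Cox7c, Ndufa4 and Atp5e, and for 0 the reverse held. Over all genes measured the shares were 10.6% above and 9.85% below. Over genes other than members with a mean log2 above 15 they were 3.38% and 4.97%. Over the 161 member probe sets, 8 lay above (4.97%) and 5 below (3.11%), against 9.89% and 9.98% of all probe sets. With 2 arrays per region an exact permutation test cannot go below p = 0.333, so none was made. Of the 46 genes with more than 1 tested probe set, 26 had probe sets on both sides of 0. Identifiers ending in _x_at or _s_at mark probe sets that may bind related transcripts, and 20 of the 83 genes were read from such a set.

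The arrays differed in a way shared by most members. The first synaptic array was the highest of the 4 for 64 of the 83 genes (77.1%), against 31.8% of all genes measured. It stood above the first non-synaptic array for 79 genes (95.2%, against 51.0% of all genes measured), with a median gap of 0.16. The second synaptic array stood below the second non-synaptic array for 73 genes (88.0%, against 50.4%), with a median gap of -0.08. These opposite gaps offset each other in part in the mean of a region. In all, 8 members (9.64%, against 26.1% of all genes measured) were higher on the synaptic array under both numbers, Cox4i2, Cox7c, Ndufb1, Ndufb4, Ndufa4, Atp5e, Uqcrc1 and Uqcrc2, and 2 (2.41%, against 25.6%) were lower under both, Sdhc and Cox7a2l.

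**Figure D3:**
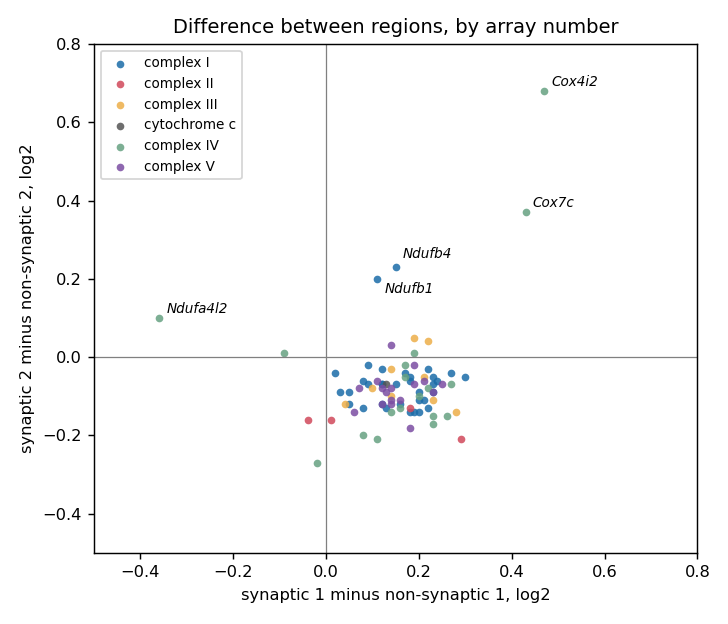
Difference between regions in arrays numbered 2 (vertical, log2) against arrays numbered 1 (horizontal, log2), 1 point for each of 83 genes, coloured by complex. Most points lie right of 0 and below 0, 79 being positive under number 1 and 73 negative under number 2.

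Gaps of the same direction were found in other bright genes and in markers of muscle fibres. The 10 markers of skeletal muscle fibres, all with a mean log2 intensity above 15, had median gaps of 0.15 under number 1 and -0.11 under number 2. Brightness and expression in muscle fibres were not separated, and the part of either in the gaps was not tested. The 503 other genes with a mean log2 intensity above 15 had median gaps of 0.12 under number 1 and -0.06 under number 2, where the 75 members above 15 had 0.17 and -0.09. The first synaptic array was the highest for 68.4% of those other bright genes and for 84.0% of the bright members. The 7 members below 12 had gaps of 0.11 and 0.20. Quantile normalization gives every array the same distribution of values, so a gap shared by most of the brightest probe sets is largely removed by the method itself. It brought the member gaps to 0.02 and 0.01, and left the first synaptic array the highest for 24 of the 83 genes. With it, 7 members (8.43%) lay above and 5 (6.02%) below, where the shares of all genes measured were 11.3% and 9.27%. Centring each array on its median widened the gaps to 0.26 and -0.14, and gave 2 members above (2.41%) and 0 below, where all genes measured gave 9.95% and 8.6%. The first synaptic array also had the highest Gapdh ratio of 3' over 5' probe sets, which reflects RNA integrity, at 1.03, while the other 3 ran from 0.814 to 0.853. The part of that ratio in these gaps was not tested.

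**Figure D4:**
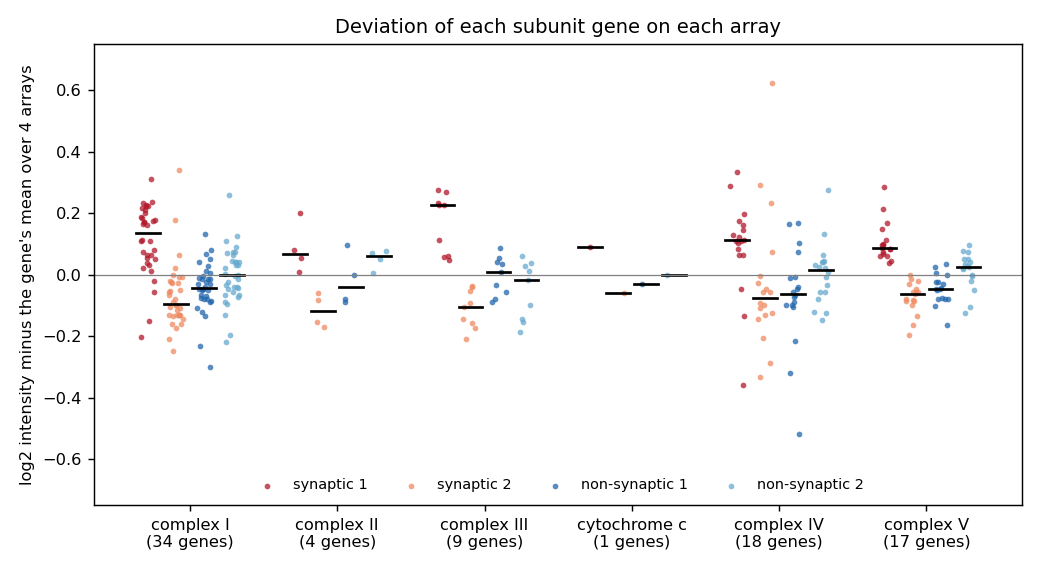
Log2 intensity of each gene on each array minus the mean of that gene over the 4 arrays, by complex (points, genes; bars, medians). The first synaptic array stands highest in all 5 complexes by its median, and the second synaptic array lowest.

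**Figure D5:**
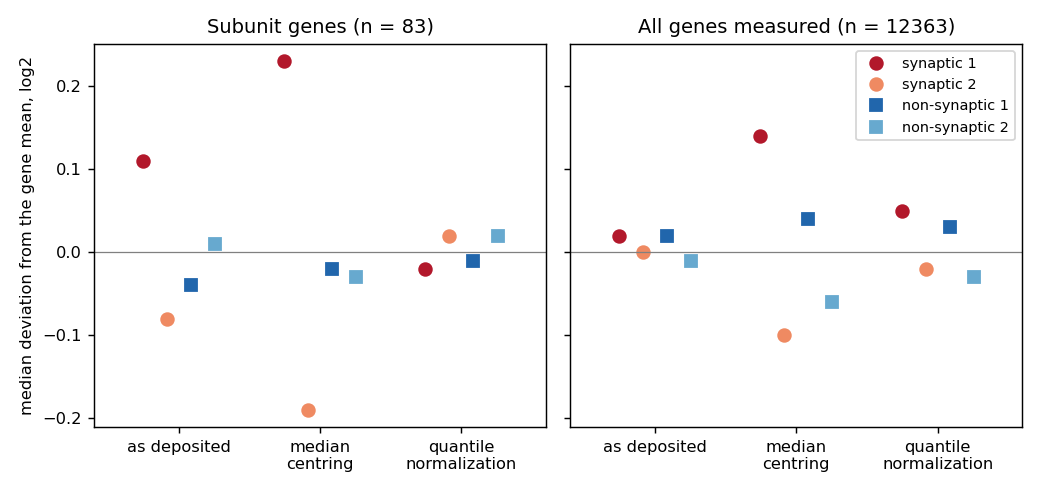
Median deviation of each array from the gene means (log2) for the 83 subunit genes and for all 12363 genes measured, with the values as deposited and under 2 other scalings. The spread of the member medians, from -0.08 to 0.11 as deposited, narrows to between -0.02 and 0.02 with quantile normalization. That method gives values of equal rank the same value on every array.

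Arrays of different number differed more than arrays of different region for most members, as for most genes measured. The difference between number 1 and number 2, averaged over the regions, was larger in size than the difference between regions for 62 of the 83 genes (74.7%), and for 71.5% of all genes measured. Among the 503 other genes with a mean log2 above 15 that share was 85.5%. Its median size was 0.0994 for the members, against 0.0455 for the difference between regions. These sizes were 0.258 and 0.116 for all genes measured, and 0.202 and 0.0572 for the 503 other bright genes. By complex the median size of the difference between numbers was 0.175 for complex III, 0.152 for complex I, 0.124 for complex IV, 0.0669 for complex II and 0.0622 for complex V. The genes with the largest excess of number 1 over number 2 were Cox6a1 at 0.46, Ndufa10 at 0.45 and Cox8a at 0.44, and those with the largest deficit were Cox4i2 at -0.56, Ndufb4 at -0.45 and Ndufs4 at -0.44. These 6 were picked out after their values were seen, and the number has no stated meaning.

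The neighbouring genes of mitochondrial energy supply also had no call. Of 46 assembly factors of the complexes 43 were measured, with a median of -0.04, and 0 passed limma over all probe sets or at an unadjusted p under 0.05. Uqcc1, which helps to assemble complex III, gave 13.18 and 13.24 on the synaptic arrays and 13.44 and 13.42 on the non-synaptic arrays, set apart with a difference of -0.22 ± 0.17. Coa5, an assembly factor of complex IV, differed by -0.22 ± 0.17 and was set apart too, while the copper chaperone Cox17 differed by 0.07 ± 0.17. In all, 2 of the 43 lay above (4.65%) and 5 below (11.6%), where all genes measured gave 10.6% and 9.85%. Of 14 genes of the citric acid cycle 13 were measured, with a median of -0.02 and 0 set apart, among them Idh3a at -0.12 ± 0.16 and Mdh2 at 0.04 ± 0.14. Carriers and energy transfer, with 13 of 14 measured, had a median of 0.00. The adenine nucleotide carrier of muscle, Slc25a4, differed by -0.06 ± 0.13.

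Regulators of mitochondrial biogenesis were all measured, 17 of 17, with a median of 0.01. The coactivator Ppargc1a gave 14.60 and 15.19 on the synaptic arrays and 15.01 and 15.45 on the non-synaptic arrays. It was lower on the synaptic array under both numbers, the regions overlapped, and the difference of -0.34 ± 0.27 had an unadjusted p of 0.266. Its relative Pprc1 differed by 0.30 ± 0.23, with the regions apart. The large subunit of the mitochondrial ribosome, with 23 of 24 measured, had a median of -0.01, with Mrpl39 at 0.20 ± 0.20 and Mrpl9 at -0.16 ± 0.16. By limma, 0 of the genes in these 5 lists passed the adjusted threshold or had an unadjusted p under 0.05.

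Some markers of other cell types in the same pieces of tissue passed the test. All 8 measured markers of Schwann cells, of 12 in the list, had both synaptic arrays above the others, against 10.6% of all genes measured. Mbp, a myelin protein, had log2 intensities of 15.33 and 15.44 against 11.81 and 11.94 (limma adjusted p = 0.0326), and the summed intensity of the 8 was 109808 and 119542 in the synaptic region against 33966 and 35159 in the non-synaptic region. Adipoq, the fat cell hormone, gave 7.54 and 7.56 against 13.14 and 12.82 (limma adjusted p = 0.0326). Of the measured markers, Adipoq among them, 4 of 7 for adipocytes (57.1%) and 2 of 6 for brown adipocytes (33.3%) were set apart below. Over all genes measured that share was 9.85%. The list medians were -0.12 for adipocytes and -0.05 for brown adipocytes. Ucp1, the uncoupling protein of the mitochondria of brown fat, lay at the floor in the synaptic region and at 12.63 and 10.96 in the other, with an adjusted limma p of 0.492. Cox8b, which is also known from brown fat, gave the 0.07 stated above. Summed over the 6 brown fat markers, of which Cox8b is one, the intensity was 150715 and 132557 in the synaptic and 142331 and 143900 in the non-synaptic region. The 5 markers without Cox8b, which makes up most of that sum, gave 8849 and 7981 in the synaptic and 20411 and 11986 in the non-synaptic region. The list of skeletal muscle fibres had a median of 0.02. Among fibre types, the slow fibre list had a median of 0.08 and the fast fibre list 0.04. Of the 12 fast genes 3 (25%) were set apart below, against 9.85% of all genes measured. The part of these cell types in the subunit levels was not tested.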

How the data were processed

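The authors deposited 1 linear intensity per probe set and array in a series value table, for 45101 probe sets, 64 of them controls. How the probes were summarised and scaled is not given in the sources used here. All 4 arrays had a 2% trimmed mean of 2500, and that scaling was kept. Median intensities ran from 658 to 769. A floor was set at the 20th percentile of the intensities, 158.891, log2 was taken, and probe sets with a mean under the 40th percentile of all log2 values (8.87) were left out, as were controls. Between 18.7% and 21.3% of probe sets lay at the floor. The number of arrays limits the precision.

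Regions were compared over 26480 probe sets with limma 3.58.1 in R 4.3.3 (linear model, moderated by eBayes with a trend on intensity, 2-sided, Benjamini-Hochberg over all probe sets, threshold 0.05). The residual degrees of freedom were 2 and those of the prior 3.16. The scheme was tested on simulated data. Gene symbols came from the platform annotation, and all 174 members matched RefSeq tables of GRCm38.p6 by Entrez identifier with 0 symbols changed. Members and gene lists were chosen with earlier results of these data known. Genes named in full are all of complexes II and III and cytochrome c, the isoform pairs, and in complexes I, IV and V the 4 with the smallest p, the 2 with the largest difference in each direction and the 2 brightest. Genes named from the gene lists come from the 2 with the smallest p and the brightest of each list. Not all of these are named, so the list genes shown are a part of that set. Alternatives were other normalizations, filters, floors, priors and thresholds, an unmoderated test, a block for the replicate number, the omission of each array, and other choices of probe set and symbol. A first fit took the filter at the same percentile of the probe set means (8.79, 27026 probe sets). The filter used here was settled after that fit was seen, and the first one is kept as an alternative. It and the other scalings of the per-array medians were added after seeing the data.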

Additional observations from a re-analysis of the deposited data

How the results depend on the processing

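The count of member probe sets past the threshold was 0 in each direction under every alternative run, including the replicate block. The median of complex III moved to 0.25 without the second synaptic array, and ran from -0.08 to 0.25 over the 4 arrays left out. Over all alternatives the median ran from -0.06 (without the first synaptic array) to 0.14 (without the second) for all members, from -0.07 to 0.17 for complex I, from -0.09 to 0.05 for complex II, from -0.04 to 0.15 for complex IV and from -0.05 to 0.10 for complex V, each with both signs. Over all probe sets, 1 was higher and 2 lower. A filter at the 60th percentile made the higher count 3, and median centring or an adjusted p under 0.10 made it 6. Both counts were 0 when the filter, the trend or the moderation was dropped, or the floor was raised to the 40th percentile. With single arrays omitted, the higher count ranged over 0 to 6 (4 without the first synaptic array, 6 without the second, 0 without either non-synaptic array) and the lower count over 0 to 5. The filter on probe set means, added after seeing the data, left the counts at 1 and 2. The replicate block gave 56 higher and 18 lower. The labels do not say that the number marks a shared animal. Deviations of same-numbered arrays from their region means correlated at 0.63 over the probe sets, which is a hint from the data and not the design. At an unadjusted p under 0.05 the block gave 1 member probe set, a second one of Cox6c at 0.37 (limma unadjusted p = 0.0346, adjusted 0.748), where 6.27% of all probe sets passed. The largest such count was 3, without the second synaptic array, where 5.47% of all probe sets passed. Of the 49 named members, 39 changed sign in some setting and none of the 49 passed the threshold in any. The cause of these changes was not tested. The dim genes Cox4i2, Cox7c and Ndufb4 were those with intervals reaching past 1.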
